A study of Mus musculus with 8 samples.

Results

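The genes described here form the antioxidant defence of macrophages and its control by the transcription factor NRF2. They were chosen by name as a fixed list of 35 genes covering NRF2 and its sensor KEAP1, the glutathione, thioredoxin and peroxiredoxin enzymes, the superoxide dismutases, catalase, and the heme and iron genes. All 35 were found in both of the authors' deposited tables, among 13676 genes tested with PBS and 14193 tested with IL-4. Each had a base mean (taken as the mean normalized count over the 4 libraries of a table) above 100. Only genes measured in both treatments could be members, so this cannot show whether a pathway gene was lost to low counts.

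NRF2, encoded by Nfe2l2, is held in the cytoplasm by KEAP1, which hands it to a ubiquitin ligase for degradation. Oxidants and electrophiles modify cysteines of KEAP1, NRF2 then accumulates, pairs with a small MAF protein and binds antioxidant response elements in the genes of glutathione synthesis, thioredoxin recycling, quinone reduction, heme breakdown and iron storage. Macrophages, which make superoxide with NADPH oxidase and recycle iron from engulfed red cells, hold large amounts of ferritin, heme oxygenase and peroxidases.

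The cells were bone-marrow-derived macrophages of female mice aged 12 weeks that were wild type (WT) or lacked, by their label, the NF-κB-inducing kinase NIK (NIK KO), which sets off the noncanonical branch of NF-κB signalling. After red cell lysis, marrow was grown for 7 days in medium with 30% supernatant of L929 cells, a fibroblast line that supplies the growth factor M-CSF, and replated in 5%. The cells then had PBS or 20 ng/mL of interleukin 4 (IL-4), the cytokine of alternative activation, for 6 hours. There were 8 libraries in 4 groups of 2, from 2 WT and 2 NIK KO mice by the numbers in the labels, each mouse giving 1 library per treatment. Its title places the study on what NIK does for respiration and differentiation in innate immune cells. The sources used here do not say whether the knockout is whole-body or which exons it removes.

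Both tables hold 1 fold change per gene, its standard error (SE) and its p-value, and no value per library, so the depth of each library is unknown and group means stand in for samples below. Group means were recovered from the base mean and fold change. In the authors' deposited tables Map3k14, the gene of NIK, was higher on the side labelled NIK KO, which goes against a label of lost expression. Its fold change was 2.12 with PBS (424.9 against 902.0 normalized counts, DESeq2 adjusted p = 0.176) and 1.99 with IL-4 (418.5 against 831.9, adjusted p = 0.00782). Reads from outside a removed part of a gene would still be counted, so this level does not check the label by itself. The file of the IL-4 comparison names the direction NIK KO over WT, that of the PBS comparison does not, and the same direction was taken for both. All 3 genes called in both tables had the same sign. The text therefore writes of libraries labelled NIK KO, and every direction below rests on that label. Of the 10 macrophage markers, all were measured, with summed means of 638493 in WT and 650414 in NIK KO with PBS and of 524623 and 501867 with IL-4. By count 6 of the 10 were higher in NIK KO with PBS and 7 with IL-4 (medians 0.03 and 0.09), so that with IL-4 the sum and the count differ in direction. Adgre1, which encodes F4/80, stood at 0.54 ± 0.18 with IL-4 and Cd68 at -0.37 ± 0.23 with PBS, neither called in the authors' deposited tables.

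The antioxidant response element is the sequence through which NRF2 acts, so its core, TGACNNNGC, was searched on both strands in the RefSeq promoter windows of the members (GRCm38.p6, from 250 bases before to 50 after a transcription start). Of the 31 members with an entry, 9 (29.0%) held the core in at least 1 window, against 14.0% of all 27025 RefSeq genes. A gene with more windows has more places for a match. Per window the shares were 20.5% of 44 member windows and 12.4% of all 32851. The members were chosen by name for this pathway, and the shares were not tested. Hmox1, Gclc, Gsr and Prdx6 had no entry. A match is a run of letters and not a measured binding site. Sequence outside the windows was not searched, so a gene without the core here may still have an element. The 9 sites shown are the matches to the core in these windows. Each is written 5′ to 3′ on the strand that holds the core, with the core in capitals.
Nfe2l2, chr2:75704889-75704909, minus strand: cccaccTGACTCCGCcatgcc
Me1, chr9:86695906-86695926, minus strand: ccgccgTGACTCAGCgcttct
Gclm, chr3:122245417-122245437, minus strand: gagagtTGACGGTGCgcccgg
Mgst1, chr6:138140465-138140485, minus strand: gcctccTGACCGTGCcaagcc
Gsta3, chr1:21240458-21240478, plus strand: caggcaTGACATTGCattttt
Txnrd1, chr10:82859108-82859128, minus strand: tcagaaTGACAAAGCaaaaat
Srxn1, chr2:152105546-152105566, minus strand: tcactcTGACCTAGCtgccca
Prdx1, chr4:116685460-116685480, minus strand: gggggaTGACTCAGCgctttc
Sod1, chr16:90220700-90220720, minus strand: tgagtcTGACCACGCccacct
The cores of Me1 and Prdx1 were spelled alike, TGACTCAGC. That of Me1 lay next to the transcription start, with its first base at position -6, and that of Srxn1 lay after it, at position 29.

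None of the 35 antioxidant genes differed by the test between WT and the libraries labelled NIK KO, in either treatment. With PBS the members were split evenly, 18 with the higher mean under the NIK KO label and 17 with the lower, and a median log2 fold change of 0.00 in the authors' deposited table (all genes, -0.01, with 51.7% lower). With IL-4 they leaned lower, 26 lower and 9 higher, with a median of -0.12 in the authors' deposited table (all genes, -0.01, with 51.1% lower). By the authors' DESeq2 test, with PBS 0 of 35 were called at an adjusted p under 0.05, where 0.0366% of all genes were, and 0 had an unadjusted p under 0.05, where 1.24% of all genes did. With IL-4 0 of 35 were called, where 0.12% of all genes were, and 0 had an unadjusted p under 0.05, where 2.95% did.

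How large a change the data allow was read from intervals that take the SE as exact. With 2 mice a side they may be too narrow. Approximate 95% intervals from the normal distribution of the fold changes in the authors' deposited tables lay within 2-fold in both directions for 33 of 35 members with PBS and 32 with IL-4. They lay within 1.5-fold for 14 with PBS and 22 with IL-4, among the latter Nfe2l2, Keap1, Hmox1, Gpx1, Gpx4, Txnrd1 and Cat. The intervals wider than 2-fold were those of Gsta3 and Sod2 in both treatments and of Prdx5 with IL-4. At the smallest statistic that was called in each table, a member of median SE would have needed a 2.25-fold change with PBS or a 1.70-fold change with IL-4. Over the members the fold needed ran from 2.03 to 12.9 with PBS and from 1.52 to 8.57 with IL-4, the highest for Sod2.

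**Figure D1:**
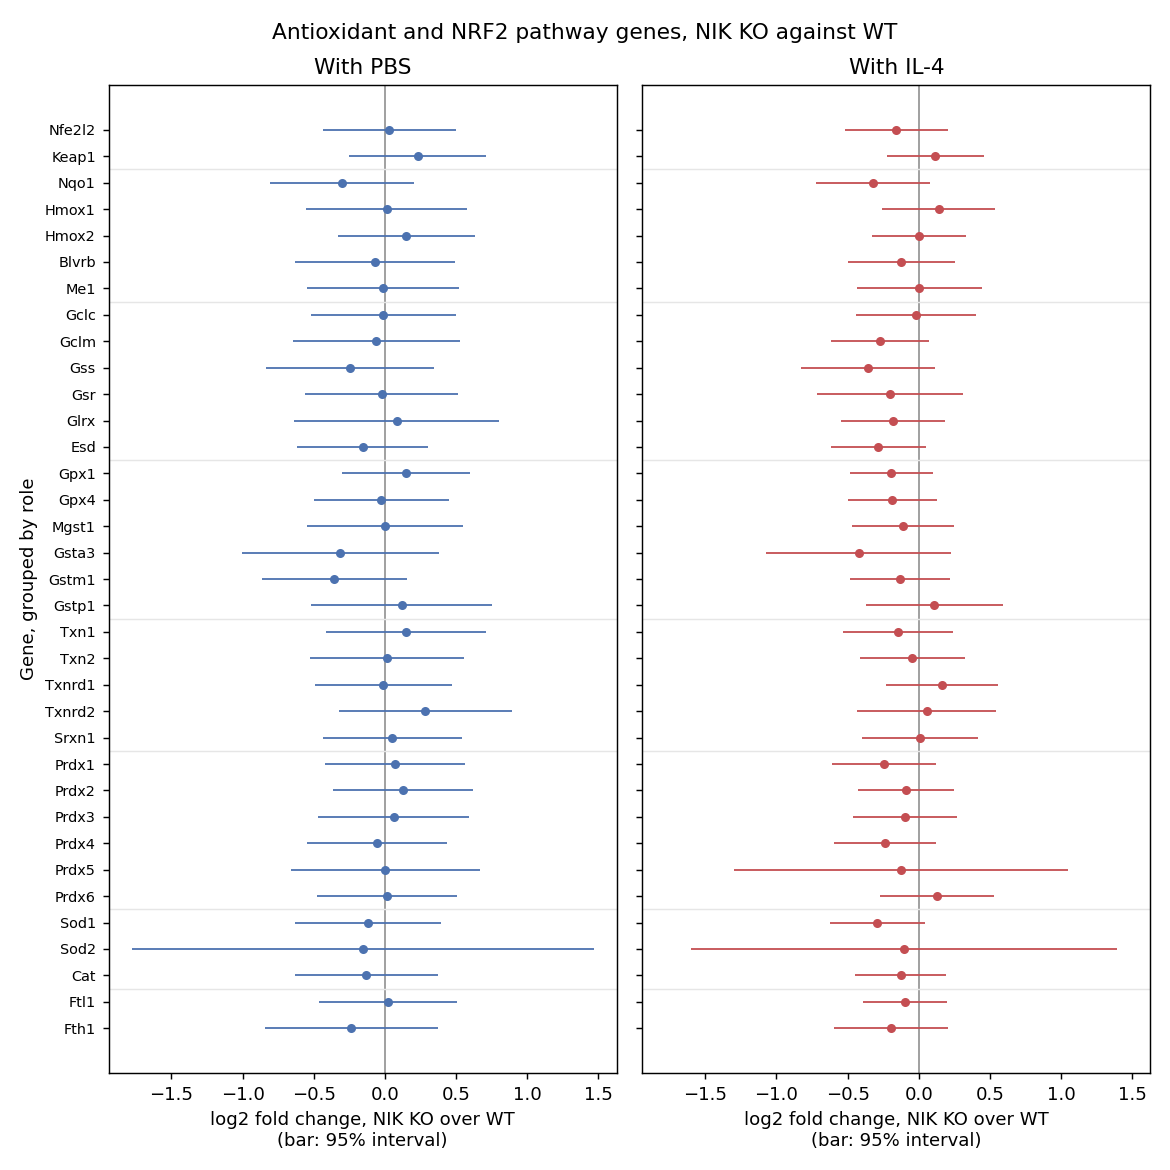
Log2 fold change of the 35 genes, NIK KO over WT, with PBS (left, blue) and with IL-4 (right, red), from the authors' deposited tables; points are the fold changes and bars their 95% intervals. Every bar crosses 0, 17 points lie below 0 in the left panel and 26 in the right, and Sod2 has the longest bars.

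NRF2 and its sensor did not pass the test in either treatment. Nfe2l2 had recovered means of 3380 in WT and 3454 in NIK KO with PBS, and of 3862 and 3466 with IL-4. Its log2 fold changes in the authors' deposited tables were 0.03 ± 0.24 (SE) and -0.16 ± 0.19. Keap1 had 1669 and 1957 with PBS and 1599 and 1732 with IL-4, or 0.23 ± 0.25 and 0.12 ± 0.17 in the authors' deposited tables. For both genes and treatments the fold change was smaller than its SE.

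Of the classical NRF2 targets that reduce quinones, break down heme or make NADPH, Nqo1 lay lowest. Nqo1, the quinone reductase, had 863.8 in WT and 701.0 in NIK KO with PBS and 766.0 and 614.0 with IL-4. In the authors' deposited tables this was -0.30 ± 0.26 (p = 0.244) and -0.32 ± 0.20 (p = 0.118), by DESeq2. The NIK KO mean was thus lower by 1.16 SE with PBS and by 1.56 SE with IL-4. Hmox1, the inducible heme oxygenase, did not follow it. Its means were 6328 and 6383 with PBS and 3364 and 3705 with IL-4, with fold changes of 0.01 ± 0.29 and 0.14 ± 0.20 in the authors' deposited tables. Hmox2, its constitutive partner, stood at 0.15 ± 0.25 and 0.00 ± 0.17. Blvrb, which reduces biliverdin and flavins, stood at -0.07 ± 0.29 and -0.12 ± 0.19, and Me1, the malic enzyme that makes NADPH, at -0.01 ± 0.27 and 0.01 ± 0.22 (both from the authors' deposited tables).

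The 6 genes of glutathione synthesis and recycling were all lower in the libraries labelled NIK KO with IL-4, none past the test. Their median was -0.24 with IL-4 and -0.04 with PBS, where 5 of 6 were lower, in the authors' deposited tables. Gclm, the modifier subunit of glutamate-cysteine ligase, the first enzyme of glutathione synthesis, had means of 5884 and 5643 with PBS and 4190 and 3473 with IL-4. The latter pair is -0.27 ± 0.18 in the authors' deposited table (DESeq2 p = 0.126). Gclc, the catalytic subunit of the same enzyme, was level in both, at -0.01 ± 0.26 and -0.02 ± 0.21. Gss, glutathione synthetase, had 430.4 and 363.5 with PBS and 420.8 and 328.6 with IL-4, or -0.24 ± 0.30 and -0.36 ± 0.24 in the authors' deposited tables. Esd, which hydrolyses S-formylglutathione, had 16060 and 14407 with PBS and 12554 and 10312 with IL-4, the last pair at -0.28 ± 0.17 in the authors' deposited table (DESeq2 p = 0.0941). Gsr, which reduces oxidised glutathione, stood at -0.02 ± 0.27 and -0.20 ± 0.26, and Glrx, a glutaredoxin, at 0.08 ± 0.37 and -0.18 ± 0.19, in the authors' deposited tables.

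Glutathione peroxidases and transferases held the lowest fold change of the list in each treatment. With PBS this was Gstm1, a cytosolic transferase, whose means were 1649.5 and 1290.2 (-0.35 ± 0.26, DESeq2 p = 0.171, from the authors' deposited table). With IL-4 Gstm1 stood at -0.13 ± 0.18. With IL-4 the lowest was Gsta3, another transferase, at 300.5 and 224.5 (-0.42 ± 0.33, DESeq2 p = 0.204, from the authors' deposited table), after -0.31 ± 0.35 with PBS. Gsta3 had the lowest base mean of the list with IL-4 and an SE above that of most of its neighbours in level. Gpx1, the abundant cytosolic glutathione peroxidase, had 14120 and 15686 with PBS and 17262 and 15101 with IL-4, which is 0.15 ± 0.23 and -0.19 ± 0.15 in the authors' deposited tables. Gpx4, which reduces lipid peroxides in membranes and so restrains ferroptosis, stood at -0.02 ± 0.24 and -0.19 ± 0.16. Mgst1, a membrane-bound transferase and peroxidase, stood at 0.00 ± 0.28 and -0.11 ± 0.18, and Gstp1 at 0.12 ± 0.32 and 0.11 ± 0.25, in the authors' deposited tables.

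The thioredoxin system was the one role in which most genes leaned higher with both treatments, 4 of 5 with PBS and 3 of 5 with IL-4, with medians of 0.05 and 0.01 in the authors' deposited tables. Txnrd1, the cytosolic thioredoxin reductase, had 4684 and 4649 with PBS and 4503 and 5039 with IL-4, and its 0.16 ± 0.20 was the highest fold change of the list with IL-4. Txnrd2, the mitochondrial reductase, had 286.5 and 349.1 with PBS and 399.2 and 415.0 with IL-4, and its 0.28 ± 0.31 was the highest with PBS in the authors' deposited tables. Neither exceeded its SE. Txn1, the cytosolic thioredoxin, stood at 0.15 ± 0.29 and -0.15 ± 0.20, Txn2, the mitochondrial one, at 0.02 ± 0.28 and -0.05 ± 0.19, and Srxn1, the sulfiredoxin that repairs overoxidised peroxiredoxins, at 0.05 ± 0.25 and 0.01 ± 0.21 (authors' deposited tables).

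Of the 6 peroxiredoxins, the thiol enzymes that remove most cellular hydrogen peroxide, 1 was lower with PBS and 5 with IL-4. Prdx1, the most abundant of them in normalized counts per kilobase of transcript, had 27467 in WT and 28880 in NIK KO with PBS and 20417 and 17207 with IL-4. In the authors' deposited tables this was 0.07 ± 0.25 and -0.25 ± 0.19, the latter beyond 1 SE. Prdx4, the form of the endoplasmic reticulum, stood at -0.05 ± 0.25 and -0.24 ± 0.18. Prdx2 stood at 0.13 ± 0.25 and -0.09 ± 0.17, and the mitochondrial Prdx3 at 0.06 ± 0.27 and -0.10 ± 0.19. Prdx6, which acts with a single catalytic cysteine and glutathione, went the other way with IL-4, at 0.02 ± 0.25 and 0.13 ± 0.20 in the authors' deposited tables. Prdx5 stood at 0.00 ± 0.34 and -0.12 ± 0.60.

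Both superoxide dismutases and catalase were lower in the libraries labelled NIK KO in both treatments, by small amounts. Sod1, the cytosolic copper-zinc dismutase, had 3779 and 3476 with PBS and 2922 and 2389 with IL-4. Its -0.29 ± 0.17 with IL-4 had the smallest p of the list in that treatment (DESeq2 p = 0.0907, adjusted p = 1.00, from the authors' deposited table), after -0.12 ± 0.26 with PBS. Cat, the peroxisomal catalase, stood at -0.13 ± 0.26 and -0.13 ± 0.16, with means of 6537 and 5975 and then 4779 and 4377. Sod2, the mitochondrial manganese dismutase, is taken up below for its SE. A chosen set of 5 members with a mitochondrial protein was Sod2, Prdx3, Prdx5, Txn2 and Txnrd2, which are not all the members with a mitochondrial form. The set had a median of 0.02 with PBS and -0.10 with IL-4 in the authors' deposited tables, and 1 and 4 of these 5 were lower.

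Ferritin, the iron store, made up most of the counts of the list. Together Ftl1 and Fth1, the light and heavy chains, took 2.82% of all normalized counts with PBS and 1.97% with IL-4. Ftl1 had 184185 in WT and 187381 in NIK KO with PBS and 164724 and 154097 with IL-4, or 0.02 ± 0.25 and -0.10 ± 0.15 in the authors' deposited tables. Fth1 had 231139 and 196104 with PBS and 178468 and 156171 with IL-4, or -0.24 ± 0.31 and -0.19 ± 0.20 in the authors' deposited tables. For Ftl1 85.4% of the 31-base words of its transcript also occur in other genes, above all in the copy Ftl1-ps1, so its reads could be divided. Ftl1-ps1 was listed at means of only 348.8 and 353.2 with PBS, and the sum of the pair had log2 ratios of 0.02 with PBS and -0.10 with IL-4. Over 50% of the words were also shared for Gpx4 (66.8%) and Gstp1 (67.5%), whose counts are uncertain in the same way. The next largest shares were those of Sod1 (35.4%), Gstm1 (34.3%), Me1 (34.2%) and Esd (21.5%), whose reads could be divided too.

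Between genes, levels were compared as normalized counts per kilobase of transcript in WT with PBS. After Ftl1 at 190274 and Fth1 at 154711 came Gpx1 at 13171, Prdx1 at 11973 and Esd at 8079, and the lowest was Txnrd2 at 99.7. The scale uses the longest protein-coding transcript of each gene in GENCODE M21, which may not be the isoform these cells use. Both ferritin chains stood more than 10 times above every other member per length.

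The 9 genes that hold the element core shown above were set beside the 22 whose windows lack it. With IL-4 their medians were -0.16 and -0.13, with 6 of 9 and 18 of 22 lower. With PBS they were -0.01 and 0.01, with 5 of 9 and 10 of 22 lower (all from the authors' deposited tables). These are descriptions without a test.

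Sod2 had by far the widest SE of the list. Its fold change was small, -0.16 with PBS (6177 in WT and 5544 in NIK KO) and -0.10 with IL-4 (3367 and 3138). The SE was 0.83 with PBS and 0.76 with IL-4 in the authors' deposited tables, where the 200 genes nearest to it in base mean had a median SE of 0.25 and 0.17. That placed Sod2 above 99.0% and 99.5% of those neighbours. Its 95% interval ran from -1.78 to 1.47 with PBS and down to -1.60 with IL-4, so for this gene a 2-fold change in either direction was within the interval. Which libraries gave that SE cannot be read from values that join all 4.

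A wide SE at this level was uncommon and fell on a short set of genes. Of 1296 genes with a base mean of 2000 or more in both tables, 10 had an SE above 0.5 in both. Besides Sod2 these were Acod1, which makes itaconate, Saa3, an acute-phase protein, Clec4e, the Mincle receptor, Cebpb, a transcription factor of inflammation, Marcksl1, Apoe, mt-Atp6, Gm28437 and Gm7336. Prdx5 joined with IL-4 alone, with an SE of 0.60 against a neighbour median of 0.17 (0.34 with PBS). With IL-4 alone the limit was also passed by Icam1, Tgm2, Cd14, Ikbke, Ehd1 and Tlr2. These genes were chosen after their SE had been seen.

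**Figure D2:**
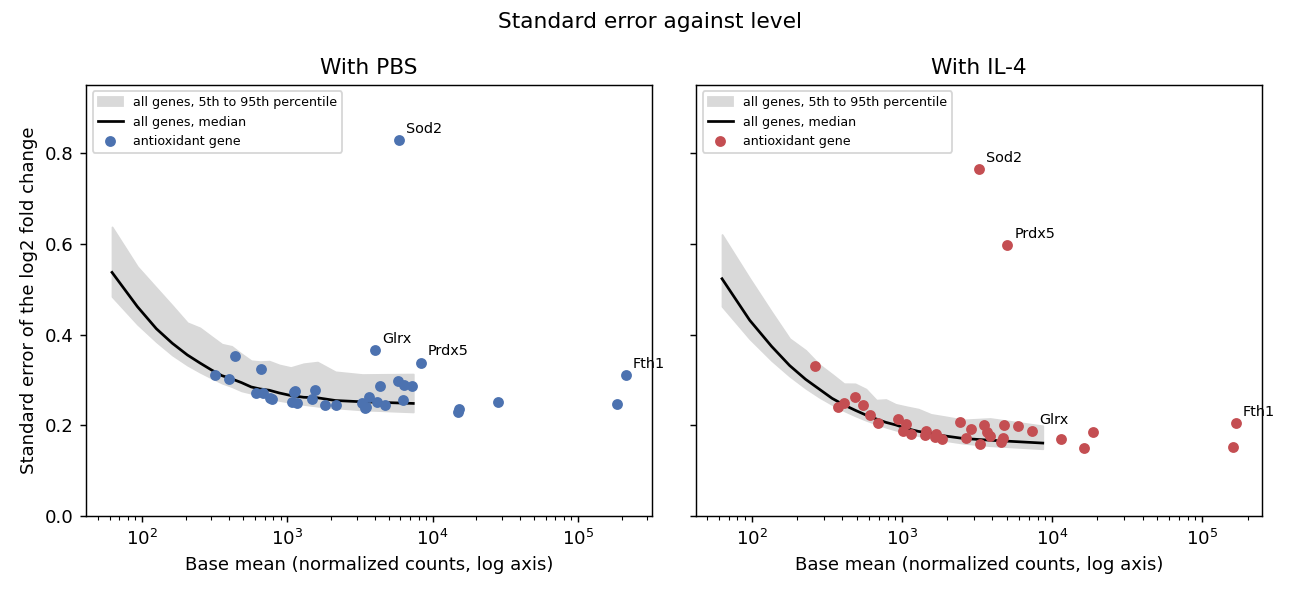
Standard error of the log2 fold change against base mean (log axis) with PBS (left) and IL-4 (right), from the authors' deposited tables; points are the 35 genes, the line is the median of all genes in 20 bins of base mean and the grey band the 5th to 95th percentile. Sod2 stands at 0.83 and 0.76, far above the band in both panels, and Prdx5 at 0.60 with IL-4.

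Fold changes with IL-4 differed by transcript length over all genes. The members are short, with a median transcript of 1612 bases against 3144 for all genes of the IL-4 table whose base mean is at least 100. There, 78.3% of the 1903 genes whose transcripts are at most 1799 bases long had the lower mean under the NIK KO label (median -0.13), and 39.4% of longer ones did. For the 1902 genes with the longest transcripts the median was 0.14. Of the 19 members in the short class 16 were lower (median -0.13), and of the other 16 members 10 were lower (median -0.07), all from the authors' deposited table. After the trend on length over all genes was subtracted the median of the list was -0.01, while the count stayed near 26, with 24 of 35 lower. With PBS the trend was weaker, with medians of -0.03 for the 1852 shortest and 0.02 for the longest. What set the trend, and its part in the values of single members, was not tested.

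**Figure D3:**
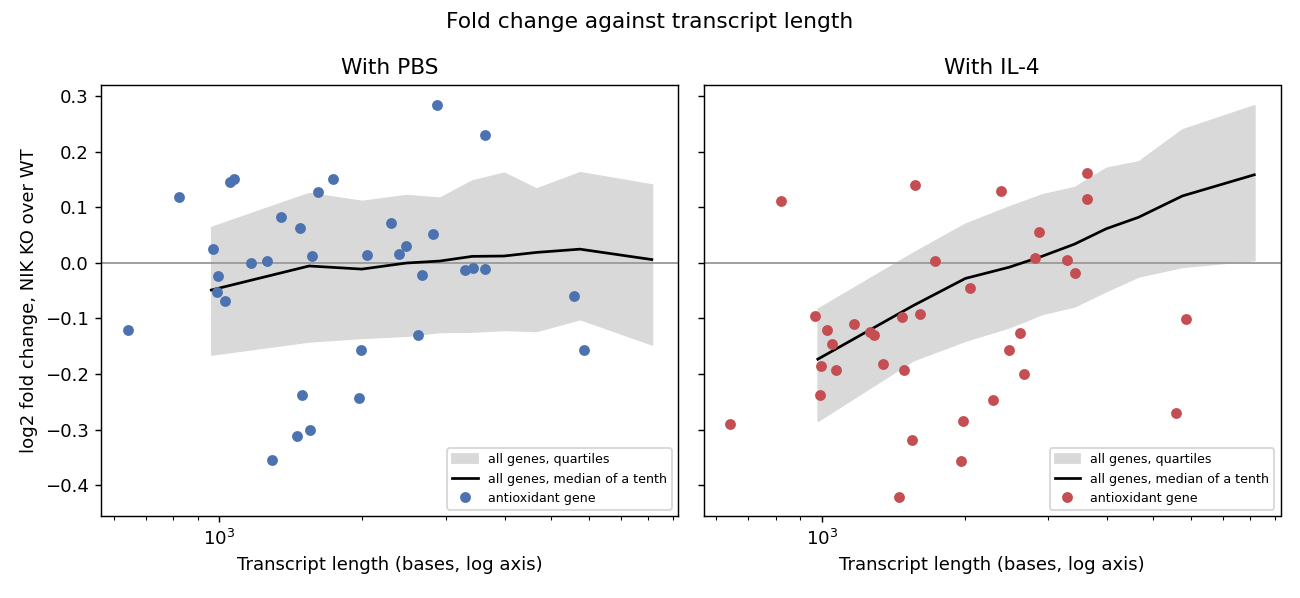
Log2 fold change, NIK KO over WT, against transcript length in bases (log axis) with PBS (left) and IL-4 (right), from the authors' deposited tables; points are the 35 genes, the line is the median of all genes of base mean 100 or more in 10 bins of length and the band their quartiles. With IL-4 the line climbs from -0.17 in the shortest bin to 0.16 in the longest, and most antioxidant genes sit at its short, low end.

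Some antioxidant enzymes are abundant in red cell precursors, so markers of other cells were read beside them. Erythroid markers summed with IL-4 to 344.1 in WT and 158.0 in NIK KO over 6 of 10 markers, and with PBS to 96.1 and 103.4 over 5. With IL-4 4 of the 6 were lower in NIK KO, all with an unadjusted p under 0.05, 2 were higher and 0 were called. Of these, Hbb-bt, a beta globin, stood at -2.15 ± 0.75 with IL-4 (DESeq2 adjusted p = 0.772), Hba-a1 and Hbb-bs, other globins, at -1.19 ± 0.50 and -1.03 ± 0.49, while Ahsp was in neither table (authors' deposited tables). Fibroblast markers summed to 697.8 and 299.6 with IL-4 over 9 of 10, and to 213.4 and 179.8 with PBS over 8. With IL-4, 7 of the 9 were lower in NIK KO and 2 higher. There Col3a1, a collagen, was called lower in NIK KO than in WT (-2.34 ± 0.53, DESeq2 adjusted p = 0.0107, from the authors' deposited table), beside Sparc at -1.08 ± 0.33 and Col1a2 at -1.52 ± 0.49, neither called. Neutrophil and precursor markers summed to 291.6 and 213.0 with IL-4 over 6 of 10, with 4 lower and 2 higher and S100a8 at -0.80 ± 0.40, and dendritic cell, mast cell and lymphocyte markers to at most 129.4 in any group. The fibroblast sum in WT, taken over 9 markers, exceeded the WT level of single members such as Gsta3 and Txnrd2 with IL-4. A sum set beside a single gene gives no share of fibroblast RNA in that gene. Without Prdx2, Blvrb, Cat, Gpx1 and Sod1, which red cell precursors also express strongly, the median of the list with IL-4 was -0.12, with 21 of 30 lower. In bulk RNA fewer cells of a type and less RNA per cell cannot be told apart, and the part of other cells in single values was not tested.

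Outside the 35 genes, 5 lists of other pathway genes, 90 in all, were read the same way. DESeq2 called 0 of the 85 measured with PBS and 0 of the 87 with IL-4, and an unadjusted p under 0.05 was found for 0 and 2, Gsk3b and Mgst2. These 2 of 87 are no larger a share than the 2.95% of all genes with IL-4. Their medians were -0.01 and -0.02 in the authors' deposited tables. NRF2 partners and regulators (12 genes) had 5 higher with PBS and 9 with IL-4. Gsk3b, a kinase that marks NRF2 for degradation apart from KEAP1, had 827.8 in WT and 1163 in NIK KO with IL-4 (0.49 ± 0.19, DESeq2 p = 0.00997, adjusted p = 1.00, from the authors' deposited table), after -0.16 ± 0.28 with PBS. Maff, a small MAF protein of low level, stood at -0.74 ± 0.47 with PBS and -0.57 ± 0.40 with IL-4 in the authors' deposited tables.

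Among other NRF2 targets, 7 of 19 were higher with PBS and 8 of 19 with IL-4. G6pdx, the enzyme that opens the pentose phosphate pathway and supplies NADPH for glutathione reduction, had the smallest p of its list in both treatments, with opposite signs. Its means were 5415 in WT and 4061 in NIK KO with PBS and 4713 and 5764 with IL-4, or -0.42 ± 0.25 (DESeq2 p = 0.0945) and 0.29 ± 0.16 (p = 0.0749) in the authors' deposited tables. The difference of 0.71 ± 0.30 had p = 0.0175 by a z test on the authors' fold changes and SE, described below, and did not pass after Benjamini-Hochberg adjustment over all genes (adjusted p = 1.00).

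Of the other glutathione and thioredoxin enzymes, 12 of 29 were lower with PBS and 24 of 30 with IL-4, with a median transcript of 1477 bases in the latter. Mgst2, a microsomal transferase, had means of 178.2 and 106.8 with IL-4 (-0.74 ± 0.36, DESeq2 p = 0.0422, adjusted p = 1.00, from the authors' deposited table) and stood at -0.37 ± 0.33 with PBS. Glrx5, a mitochondrial glutaredoxin of iron-sulfur cluster assembly, stood at 0.49 ± 0.30 with PBS and -0.13 ± 0.21 with IL-4. The superoxide producers, with the subunits of NADPH oxidase, had 7 of 10 lower with PBS and 3 of 10 with IL-4, and their transcripts are longer (median 3294 bases). Cybb, the catalytic subunit of the oxidase, had 21443 and 21380 with PBS and 16597 and 19404 with IL-4, or -0.00 ± 0.25 and 0.23 ± 0.18 in the authors' deposited tables, and Rac1, a GTPase of the complex, stood at 0.31 ± 0.24 and 0.10 ± 0.15. Heme and iron handling genes had 8 of 15 higher with PBS and 11 of 16 with IL-4. There Tfrc, the transferrin receptor, stood at 0.48 ± 0.26 and 0.29 ± 0.19, and Blvra, the other biliverdin reductase, at -0.13 ± 0.27 and -0.30 ± 0.20 (authors' deposited tables).

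Whether the NIK KO effect on a gene changed between PBS and IL-4 was tested by taking the PBS log2 fold change from the IL-4 one and dividing by the joint SE of both (z test, two-sided). No exact test could be run on values that join the libraries. The same mice stand in both tables, while the test takes the errors as independent. Of the 35 members 0 were called at an adjusted p under 0.05, where 0.0149% of 13384 genes were, and 0 had an unadjusted p under 0.05, where 0.867% did. The smallest p was 0.208, for Gpx1, whose difference was -0.34 ± 0.27. Differences ran from -0.34 to 0.22 (Gstm1), and 27 of 35 were below 0, with a median of -0.12 against -0.00 for all genes. The length trend given above differed between the treatments. Genes with the shortest transcripts had a median log2 fold change of -0.03 with PBS and -0.13 with IL-4, and 19 members were among them. The part of transcript length in these differences was not tested.

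Levels with IL-4, recovered from the authors' deposited tables, were also set beside levels with PBS. The tables were normalized separately and give no error for this step, so it carries no test. The median gene, among those with base mean of at least 100 in both tables, stood 0.26 higher (log2) in the IL-4 table than in the PBS table in WT and 0.28 higher in NIK KO. Relative to that shift, 28 of 35 members were lower with IL-4 in WT and 31 in NIK KO, with medians of -0.42 and -0.47 on the log2 scale. More than 0.5 below the shift were 14 members in WT and 17 in NIK KO, where 9.26% and 10.6% of all genes were. Of the 1828 genes with the shortest transcripts 61.9% in WT and 74.3% in NIK KO lay below the shift, and 9.85% and 16.8% lay more than 0.5 below it.

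Glutathione reductase stood lowest in both genotypes, with Hmox1 and Sod2 next in WT and Sod2 and Prdx5 next in NIK KO. Gsr went from 1113 with PBS to 515.8 with IL-4 in WT (ratio 0.463) and from 1097 to 449.2 in NIK KO (0.409), below all but 0.678% and 0.503% of genes. Hmox1 went from 6328 to 3364 in WT (0.532) and from 6383 to 3705 in NIK KO (0.580). For Sod2, with its wide SE within each table, the ratios were 0.545 and 0.566, and for Prdx5 0.631 and 0.577.

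Other NRF2 targets lay at different distances from the shift of all genes, which as a ratio was 1.20 in WT and 1.21 in NIK KO. Those lower with IL-4 included Gclm, with ratios of 0.712 in WT and 0.615 in NIK KO, and Srxn1 with 0.748 and 0.725. Prdx1 had 0.743 and 0.596, and Fth1 0.772 and 0.796. Gclc stood just above the shift, with ratios of 1.23 and 1.22. Me1, with 1.00 and 1.02, and Txnrd1, with 0.961 and 1.08, lay below it. Nqo1 also lay below the shift but nearer to it than Gclm, with ratios of 0.887 and 0.876. Nfe2l2 itself had ratios of 1.14 and 1.00, below the shift in both genotypes. Glrx was the exception on the high side, from 3905 to 7805 in WT (2.00) and from 4135 to 6881 in NIK KO (1.66), above 96.3% and 89.4% of genes. The mitochondrial Prdx3 followed at 1.58 and 1.41, and Txn2, at 1.31 and 1.26, also lay above the shift in both genotypes. Txnrd2, at 1.39 and 1.19, lay above it in WT and just below it in NIK KO. Sod2 and Prdx5, also mitochondrial, lay near the bottom.

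**Figure D4:**
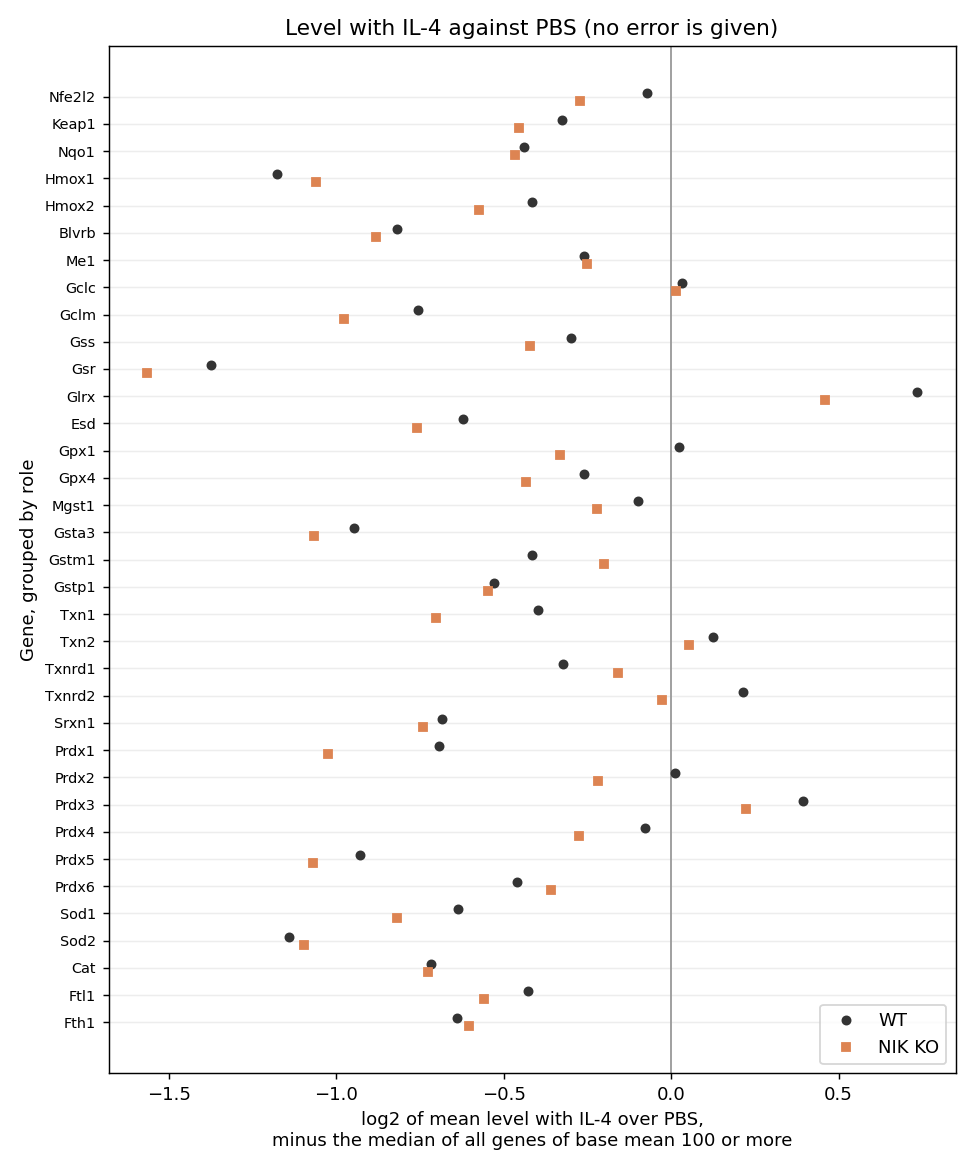
Log2 ratio of the recovered mean level with IL-4 over PBS, minus the median of all genes of base mean 100 or more, in WT (dark circles) and NIK KO (orange squares); the levels come from tables normalized separately and have no error. In WT 28 of 35 genes and in NIK KO 31 lie below 0, Gsr lies lowest and Glrx highest in both.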

How the data were processed

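RNA of 8 libraries in 4 groups of 2 was compared through 2 tables, 1 per treatment. The submitters' processing notes name GRCm39, DESeq2 1.32.0 and Salmon 1.4.0, while the sources used here give neither their settings nor filters. In each table the authors deposited, per the file headers, a base mean, a signal that averages normalized counts over 4 libraries. They also deposited the log2 fold change with its SE, the Wald statistic (a score), and the p-value with its adjusted value. The statistic equals fold change over SE, and Benjamini-Hochberg adjustment gave back the deposited adjusted p to within 3.2e-05. The adjusted p is missing for 551 genes of the IL-4 table and was left so.

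Calls were genes whose deposited adjusted p was under 0.05. Group means were recovered from base mean and fold change, since groups are of equal size. This takes the fold change as the ratio of the plain group means, from a model with genotype alone. The sources used here do not state that model, so the recovered means are estimates. Where 2 IDs share a symbol the one of higher base mean was used. Intervals are 95%, from the normal distribution. The p-values come from the authors' DESeq2 Wald test on 2 mice a side. They do not measure the spread of each gene by itself. The z test of the difference was tested on simulated data with independent errors, which cannot check the effect of the same mice standing in both tables. Transcript length and 31-base words shared with other genes came from GENCODE M21 (GRCm38), for the longest protein-coding transcript, and promoter windows from RefSeq (GRCm38.p6). These builds are not the authors', and no coordinate was matched to their files. Python 3.11.15, numpy 2.4.6, pandas 2.3.3, scipy 1.17.1, statsmodels 0.14.6 and matplotlib 3.10.9 were used.

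The members and lists were chosen with earlier results of these data known. All 35 members are described. Of other lists, genes called, up to 3 a list and table of unadjusted p under 0.05, or else the smallest p, are named where a result turns on them. The gene sets by SE were chosen after their values were seen. Alternatives were other thresholds, filters, distributions, centring and trends. Replicates could not be left out, as no value per library was used.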

Additional observations from a re-analysis of the deposited data

How the results depend on the processing

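The count of called members was 0 in each treatment and for the difference between treatments, and it was 0 under each of the 6, 6 and 4 alternatives tried: an adjusted p under 0.1, an unadjusted p under 0.05, adjustment over better measured genes, t distributions of 2 or 4 degrees of freedom and, within each treatment, centring. Since 0 members had an unadjusted p under 0.05, re-adjustment and the t distributions could give no other count and add no support. The median of the members with PBS lay between -0.03 and 0.03 over 8 alternatives, on both sides of 0. In each treatment the 8 include a mean weighted by inverse squared SE in place of a median. It was -0.01 with PBS and -0.12 with IL-4. With IL-4 the median lay between -0.17 (trend on base mean subtracted) and -0.01 (trend on transcript length subtracted), negative in all 8. The filter at a base mean of 100 kept all 35 members in both treatments, so it could not change the median and adds no support. Leaving out Sod2 and Prdx5, or the 5 genes shared with red cell precursors, were chosen after seeing the data, and gave -0.13 and -0.12 with IL-4. No paired analysis was possible because the tables give no value per library and WT and NIK KO share no mouse. The SE, with 2 mice a side, limits what could be seen.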
